A study of Mus musculus with 8 samples.

Results

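The 4 wild-type libraries (WT replicates 1 to 4) of an 8-library RNA-seq series on mouse distal colon epithelium were described on their own, without a comparison of genotypes. The other group of the series, 4 libraries of mice homozygous for a mutant Degs2 allele, was not used. All 4 WT libraries were chosen by their titles, and 54108 of the 54141 listed genes were kept, after leaving out 33 genes that had a failed estimate or too many fragments in at least 1 WT library. The WT animals carry the c57bl6/j strain background, and no transgene, treatment, age or sex is given in the sources used here. Epithelial cells had been released from pieces of stool-free distal colon with EDTA and collected through a 100-µm strainer, and no sort on a cell marker is mentioned. Whether the 4 libraries stem from 4 different mice is not stated, so the spread given here is that between these samples and may in part be technical. Every value is a description of 1 group, with no test.

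The colon epithelium is a single layer of cells renewed from stem cells at the base of the crypts. Absorptive colonocytes take up salt, water and the short-chain fatty acids made by bacteria, goblet cells secrete the mucus that keeps bacteria away from the surface, and rarer enteroendocrine and tuft cells sense the contents of the lumen. In the mouse distal colon goblet cells are frequent and lie deep in the crypts as well as near the surface.

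Levels are given as CPM, the fragments of a gene per 1000000 fragments of all kept genes of that library, so a CPM value is a share of fragments. Levels of different genes are compared only as CPM per kb, the CPM divided by the summed exon length of the gene in GENCODE M21 on GRCm38. The deposited estimated counts had been scaled per library, and the recovered depths were 32.8, 49.8, 45.3 and 42.4 M fragments for WT replicates 1 to 4. At these depths 3 fragments corresponded to between 0.0604 and 0.0923 CPM, which covers counting error only. The coefficient of variation (CV) is the SD over the 4 libraries as a percentage of their mean.

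Before the results, 1 library has to be named. WT replicate 1 stood apart from the other WT libraries in a set of genes that mark position along the gut and colonocyte metabolism. In several of these, WT replicate 4 lay between WT replicate 1 and WT replicates 2 and 3. Among the 4228 genes with a mean of at least 50 CPM, 141, 207 and 90 genes were 2-fold or more apart between WT replicate 1 and WT replicates 2, 3 and 4, while WT replicates 2 and 3 gave 41, 2 and 4 gave 37, and 3 and 4 gave 96, more than WT replicates 1 and 4. WT replicate 1 was 2-fold or more above the mean of the other libraries in 42 of these genes and 2-fold or more below it in 87. WT replicate 3 was 2-fold or more above the mean of the others in as many, 42, and below it in 34. The mean without WT replicate 1 is given for each named gene whose mean it moves by over 1.5 times, except C1qa. What sets WT replicate 1 apart was not tested.

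For the label of distal colon epithelium 4 marker genes were looked up. Car1 (ENSMUSG00000027556, chr3:14766216-14808368), a carbonic anhydrase of colonocytes, had 6014, 520.3, 996 and 1826 CPM in WT replicates 1 to 4, a mean of 2339 ± 2509 CPM (SD, n = 4). WT replicate 1 was far above the others, and the mean without it was 1114 CPM. Zg16 (ENSMUSG00000049350, chr7:127050156-127087328), a lectin-like protein of goblet cell granules, had 1792, 2101, 2797 and 2476 CPM, and Agr2 (ENSMUSG00000020581, chr12:35992907-36004087), a disulfide isomerase needed to make mucin, had 1631, 1310.0, 1141 and 1074 CPM. Both goblet cell genes were abundant in all 4 libraries, with CVs of 19.1% and 19.3%. Hoxb13 (ENSMUSG00000049604, chr11:96194316-96197447; all positions on GRCm38), a Hox gene of the posterior end of the body axis, had 94.1, 303, 297 and 220.3 CPM and was lowest in WT replicate 1. All 4 markers were well above the floor in every library, which does not show how distal the tissue was. Hoxb13 is the only Hox gene of the 4. Hoxd13, another posterior Hox gene described below, was under 1 CPM in WT replicate 1. Without WT replicate 1 the CV of Car1 was still 59.3%, and that of Hoxb13 was 16.8%.

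Of the kept genes, 12501 (23.1%) reached 1 CPM in all 4 libraries and are termed detected, 14019 reached it in at least 1 library, and 27434 had no fragment in any. Protein-coding genes held 97.06% of all fragments, and 11449 of the 21887 coding genes (52.3%) reached 1 CPM in every library. The transcriptome was concentrated in few genes. The 10 genes with the highest mean CPM held 9.86 ± 0.996% of fragments (SD, n = 4), the 100 highest held 24.3 ± 1.02% and the 1000 highest held 54.3 ± 0.883%. Between 730 and 816 genes per library sufficed to hold 50% of its fragments. Membership at the top was largely shared: 17 genes were among the 20 highest in every library, and 73 were among the 100 highest in every library, while the order among them varied.

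Secreted products of goblet cells took the first 3 places by share of fragments among the kept genes. Clca1, a secreted metalloprotease of the mucus layer, had 23375, 19237, 18933 and 12519 CPM in WT replicates 1 to 4, a mean of 18516 ± 4482 CPM. Fcgbp, a large mucus protein that binds to the mucin network, had 17146, 17788, 13141 and 14301 CPM. Muc2, the gel-forming mucin of the colon, had 23907, 13091, 5769.8 and 15017 CPM, highest in WT replicate 1 and lowest in WT replicate 3. Among abundant genes this spread was wide, with a CV of 51.6% for Muc2 against 24.2% for Clca1 and 14.3% for Fcgbp. Without WT replicate 1 the mean of Muc2 was 11293 CPM and its CV was 43.2%.

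The other nuclear genes among the 20 highest by CPM included genes of the absorptive surface, of the cytoskeleton and of translation. Pigr, the receptor that carries polymeric IgA across the epithelium, had 7692, 8113, 8487 and 8592 CPM and the smallest spread of them, a CV of 4.96%, apart from an unnamed ribosomal RNA model. Lypd8, a GPI-anchored protein that keeps flagellated bacteria off the surface, had 5736, 7091, 7059.5 and 8562 CPM. Mptx1, a pentraxin of the gut, had 8328, 8832, 6847 and 3234 CPM and was lowest in WT replicate 4. Further nuclear genes were Dmbt1, a mucosal scavenger receptor (6454 ± 1720.4 CPM), Eef1a1, an elongation factor (5335 ± 448 CPM), Ceacam1, an adhesion molecule (4803 ± 779.6 CPM), Krt8, a keratin (4616 ± 479.6 CPM), Muc3, a membrane mucin (3294 ± 955 CPM), and Lgals4, a galectin (3249 ± 249.8 CPM). Reads of Ceacam1 and Mptx1 could be shared with near-identical relatives, so their levels are uncertain.

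**Figure D1:**
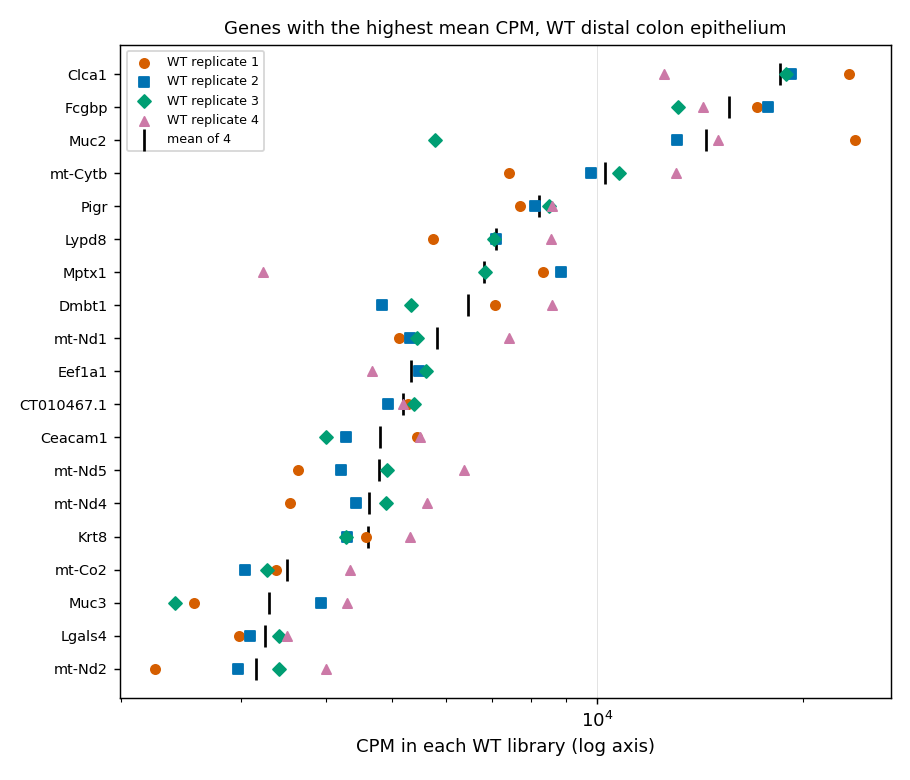
CPM on a log axis for 19 of the 20 genes with the highest mean CPM, with 1 symbol per WT library and a bar at the mean of 4. Clca1, Fcgbp and Muc2 lead, Muc2 spreads from 5770 to 23907 CPM, and Pigr stays between 7692 and 8592 CPM.

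Per kb of exon the order differed. The mitochondrial genes mt-Cytb (8960.0 ± 2034 CPM per kb) and mt-Nd1 (6085 ± 1121 CPM per kb) held ranks 1 and 3 among kept coding genes, with Mptx1 (8523 ± 3165 CPM per kb) between them. The coding genes mt-Co1, mt-Co3, mt-Atp6 and mt-Atp8, left out for too many fragments, have no rank. With them the ranks given here could be lower. Lypd8 (5539 ± 899 CPM per kb) was rank 4 and Clca1 (4902 ± 1187 CPM per kb) rank 6. Neighbours in this order differed by less than their SDs: mt-Cytb and Mptx1 overlapped, as did Lypd8, mt-Co2 (5129 ± 839 CPM per kb) and Clca1. Muc2 (2027 ± 1047 CPM per kb) and Fcgbp (1486 ± 212 CPM per kb), which are long, were rank 14 and rank 20. Short genes of secreted proteins came up instead, with Zg16 at 1823 ± 348 CPM per kb and Ang4, an antimicrobial ribonuclease, at 1590.0 ± 781 CPM per kb.

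Goblet cell and mucus genes as a list held 5.86 ± 1.24% of fragments, the largest share of the 26 lists, and all 36 members reached 1 CPM in every library. In bulk RNA fewer cells of a type and less RNA per cell cannot be told apart. The list's summed level was 75557, 59884, 47963 and 50825 CPM, highest in WT replicate 1, and 52891 CPM on average without it. Klk1, a kallikrein, had 1148, 1245, 1361 and 879.5 CPM, Tff3, a trefoil peptide secreted with mucus, had 277, 330.3, 429.7 and 289.5 CPM, and Spink4, a small secreted peptide, had 806, 542, 349 and 276 CPM. Retnlb, a resistin-like protein with antibacterial activity, was the most variable member, at 884, 431, 165 and 158 CPM, and its mean without WT replicate 1 was 251 CPM. Transcription factors of the lineage were detected as well. Atoh1, which commits cells to the secretory fate, had 92.5, 85.1, 83.9 and 66.6 CPM and Spdef, which matures goblet cells, had 131, 96.3, 70.2 and 79.4 CPM. Genes of mucin O-glycosylation that start the sugar chains, the polypeptide N-acetylgalactosaminyltransferases, summed to 1459.8 ± 99.2 CPM with 12 of 20 members at 1 CPM or more in every library, led by Galnt7 (318, 361, 364 and 341 CPM).

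The secretory genes of the crypt base formed a smaller and less even group. Of 13 members 6 reached 1 CPM in every library, and the list held 0.868 ± 0.333% of fragments, mostly through Mptx1. Ang4 had 1842, 1233, 892 and 542 CPM and Reg4, a marker of deep crypt secretory cells, had 943, 736, 512 and 196 CPM. Itln1, an intelectin, had 76.7, 30.99, 26.9 and 13.1 CPM, with a mean of 23.7 CPM without WT replicate 1. All of these were lowest in WT replicate 4, where the proliferation list was also lowest. Other members of the list, among them products of Paneth cells, a small intestinal cell type, were low. Defa17 had no fragment in any library, and Lyz1, Mmp7, Mptx2, Defa21, Defa22 and Defa24 did not reach 1 CPM in all 4.

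Absorptive colonocyte genes held 4.33 ± 0.435% of fragments, and 45 of 48 reached 1 CPM in every library. The sum moved little between libraries, at 43812, 39213, 41039.5 and 49191 CPM, although single members moved a lot: the median CV of its members was 27.97%, against 13.15% over all 12501 detected genes. Salt uptake was represented by Slc26a3, the chloride and bicarbonate exchanger (804, 933, 1277 and 1192 CPM), Slc26a2, a sulfate transporter (966, 1646, 2073 and 1505 CPM), and Scnn1a, the alpha subunit of the epithelial sodium channel (187, 241, 234 and 275 CPM). The other channel subunits, Scnn1b and Scnn1g, had 6.46, 10.1, 8.76 and 7.93 CPM and 0.769, 9.62, 8.27 and 5.47 CPM. The water channel Aqp8 had 231, 232, 300.3 and 274 CPM and Aqp4 had 822, 1113, 1348 and 1271 CPM. Atp1b1, the beta subunit of the sodium pump, had 1743, 2203, 2202 and 2485 CPM. Guca2a, the guanylin that regulates salt secretion, had 706, 313, 542 and 823 CPM and Muc13, a membrane mucin, had 1734, 2956, 2979 and 3067 CPM, lowest in WT replicate 1.

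Solute carriers as a family summed to 20867 ± 1191 CPM with 209 of 365 genes detected in every library, and the sum had a CV of 5.71%. Slc25a5, which exchanges ADP and ATP across the inner mitochondrial membrane, had 1065, 1039.7, 1016 and 1118 CPM and a CV of 4.13%. Slc5a8 and Slc16a1, which take up short-chain fatty acids such as butyrate, had 498, 677, 830.3 and 585 CPM and 422, 402, 532 and 481 CPM. Of the genes of butyrate and fatty acid oxidation 29 of 30 were detected, and the list summed to 7476, 5780.2, 6529.8 and 6640.4 CPM.

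Mitochondrially encoded genes that could be kept held 3.81 ± 0.767% of fragments. Their sum was 30246, 35045, 38916 and 48345 CPM in WT replicates 1 to 4, lowest in WT replicate 1 and highest in WT replicate 4. This is an underestimate of the mitochondrial share, since mt-Co1, mt-Co3, mt-Atp6, mt-Atp8 and mt-Ts1 were listed at 0 in at least 3 libraries for too many fragments and were left out. In WT replicate 1, mt-Atp6, mt-Atp8 and mt-Co3 did have an estimate, of 128970, 65179 and 120922 scaled counts. The subunits of the respiratory chain and ATP synthase that the nucleus encodes varied less, with a CV of 6.16% for the sum against 20.1% for the mitochondrial one. Atp5b, the catalytic beta subunit, had 1725, 1602, 1471 and 1613 CPM.

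Genes for making protein were the next largest family by share of fragments. All 83 cytosolic ribosomal protein genes were detected in every library and held 2.85 ± 0.343% of fragments, at 30867, 28717, 30866 and 23592 CPM, lowest in WT replicate 4. Translation factors summed to 19233, 19369, 19602 and 17109 CPM, also lowest there, as were the leading members Eef1a1 (5591, 5468, 5611 and 4670.1 CPM) and Eef2 (2834, 2772, 2750.2 and 2462 CPM). Endoplasmic reticulum isomerases and chaperones, which fold secreted protein, summed to 4995 ± 579 CPM, led by Calr (899, 929, 775 and 755 CPM) and Pdia3 (845, 879, 769 and 721 CPM). The families with the steadiest sums were the Rab GTPases of membrane traffic, with 4339 ± 83.2 CPM and a CV of 1.92%, the numbered gene models, which have no given name (2.98%), the histones (3.07%), the claudins of tight junctions (3.81%) and the annexins (3.99%). At the other end were the carbonic anhydrases (61.6%), the cytochromes P450 (37.7%), the carboxylesterases (37.2%), the immunoglobulin symbols (37.2%, with a sum of 16.6 CPM) and the mucins (34.7%). A steady sum did not mean steady members. The median CV of detected members was 17.7% for claudins and numbered gene models and 16.5% for histones, against 13.15% over all detected genes. It was 8.62% for Rab GTPases and 10.0% for annexins.

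**Figure D2:**
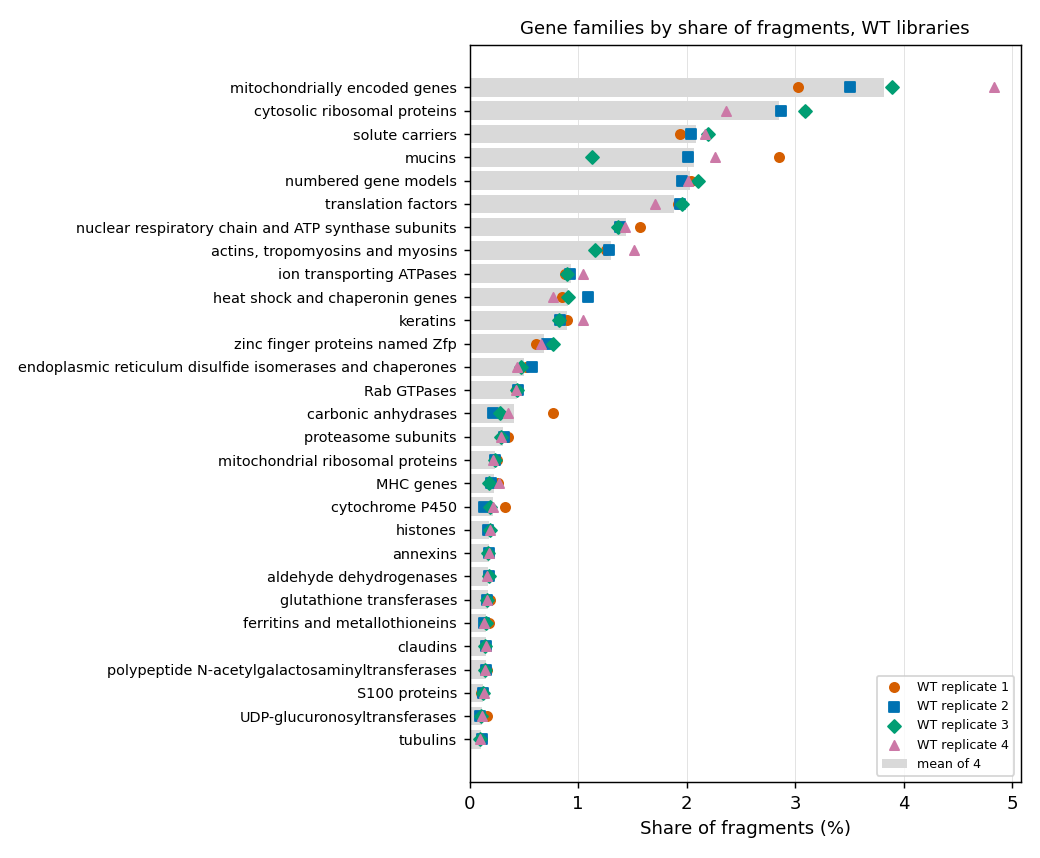
Share of fragments in percent for gene families that hold at least 0.1%, as bars for the mean of 4 WT libraries with 1 symbol per library. Mitochondrially encoded and cytosolic ribosomal protein genes are the 2 largest families, and the mucins are highest in WT replicate 1 and lowest in WT replicate 3.

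Keratin and adhesion genes were abundant in every library. Krt8 had 4583, 4290.1, 4285 and 5304 CPM, Krt19, another keratin, 2637, 2782, 2735 and 3427 CPM and Krt20, a keratin of differentiated surface cells, 1042, 645, 585 and 1096 CPM. Epcam, the epithelial adhesion molecule, had 1673, 1787, 1748 and 1887 CPM with a CV of 5.02%, and Cdh1, E-cadherin, had 1319, 1806, 1813 and 1997 CPM. Of 28 epithelial identity genes 27 were detected in every library. The tight junction genes Cldn7 (603, 586, 529 and 623 CPM) and Cldn3 (343, 366, 335 and 404 CPM) held the largest shares among claudins, and Cldn8, a claudin that seals against sodium backflow, had 36.7, 124, 169.8 and 138 CPM, lowest in WT replicate 1.

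Transcription factors of the intestine summed to 6629.6, 7321, 6819.6 and 7631 CPM, and 38 of 42 were detected in every library. Klf4, a factor of differentiated goblet and surface cells, had 956, 1180.0, 1141 and 1331 CPM, and Klf5, of the proliferating crypt, had 729, 883, 888 and 828 CPM. Cdx1 had 299, 313, 281 and 284 CPM and Cdx2, its relative that sets intestinal identity, had 281, 128, 124 and 231 CPM. Isx, an intestinal homeobox factor, was the most variable of them, at 61.6, 5.11, 8.91 and 36.6 CPM, with a mean of 16.9 CPM without WT replicate 1. Hnf4a, a nuclear receptor of the epithelium, could not be described, since its estimate had failed in WT replicates 3 and 4. It had 41326 and 46980 scaled counts in WT replicates 1 and 2.

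Several markers of position along the gut were most extreme in WT replicate 1, with WT replicate 4 between it and WT replicates 2 and 3. This order held for Hoxd13, Hoxb8, Hoxb9, Osr2, Fabp2, Reg3b and Slc15a1, but not for Hoxa13, which was highest in WT replicate 4. Hoxd13, a posterior Hox gene, had 0.676, 81.9, 83.3 and 36.5 CPM, so WT replicate 1 had under 1 CPM where the others had 36.5 CPM or more. Hoxb8, a Hox gene expressed further forward, had 31.98, 0.302, 0.288 and 4.41 CPM, the opposite order. Hoxa13 had 44.7, 73.7, 76.8 and 80.6 CPM and Hoxb9 95.1, 63.97, 54.6 and 84.9 CPM, with less difference between libraries. Osr2, a zinc finger factor in the small intestine list, had 65.5, 0.0201, 0.0664 and 5.92 CPM, at or under the floor of 3 fragments in WT replicates 2 and 3. In the same list Fabp2, a fatty acid binding protein, had 345, 66.9, 82.3 and 199 CPM and Reg3b, an antibacterial lectin, had 62.5, 2.25, 0.177 and 13.5 CPM. Slc15a1, a peptide transporter, went the other way with 45.7, 164, 186 and 136 CPM, so the list did not move as 1 block. Without WT replicate 1 the means were 1.67 CPM for Hoxb8, 2.002 CPM for Osr2 and 5.32 CPM for Reg3b. The Hox family as a whole summed to 685, 941, 909.8 and 906 CPM, lowest in WT replicate 1, which was the lowest library in 9 of the 13 detected members, against 27.7% of all detected genes.

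WT replicate 1 also stood out in detoxification genes. The list summed to 11589.8, 7916, 9288 and 9069 CPM, and WT replicate 1 was the highest library for 31 of its 45 detected members, against 34.2% of all detected genes. Cyp2c55, a cytochrome P450 of the colon, had 1913, 247, 612 and 687 CPM, and Cyp2c65 had 259.9, 24.2, 35.9 and 108 CPM. These 2 genes are close relatives, and reads may be shared between them. Ugt1a1, which conjugates bilirubin and drugs, had 174, 15.7, 25.9 and 65.5 CPM and Ces1g, a carboxylesterase, 150.4, 5.27, 6.68 and 12.1 CPM. Without WT replicate 1 the means were 515 CPM for Cyp2c55, 56.1 CPM for Cyp2c65, 35.7 CPM for Ugt1a1 and 8.03 CPM for Ces1g. Adh1, an alcohol dehydrogenase, had 334, 784, 1014 and 589 CPM and was lowest in WT replicate 1. Txn1, thioredoxin, differed little, at 597, 565, 558 and 647 CPM. Degs2, the sphingolipid enzyme for which the series was made, is outside the rule for named genes and had 147, 106, 104 and 113 CPM.

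Genes of stem and dividing cells held a small share of fragments. The crypt stem cell list summed to 3575, 3492, 3759.7 and 3322 CPM, led by the water channel Aqp4. Aqp4 is also in the absorptive colonocyte list, was lowest in WT replicate 1 and held 1138 of the mean sum of 3537 CPM. The evenness of this sum is therefore not read as that of stem cell genes. Lgr5, the receptor that marks the stem cells, had 12.3, 10.1, 17.6 and 8.28 CPM. Ascl2, a transcription factor of these cells, had 5.35, 3.56, 4.18 and 1.63 CPM. Proliferation genes summed to 1933, 1738, 1618 and 1074 CPM, and all 32 were detected in every library. WT replicate 1 was highest in 27 of them, against 34.2% of all detected genes. Mki67 had 255, 269, 355 and 157 CPM and Pcna, the replication clamp, had 65.1, 59.6, 60.1 and 41.99 CPM, both lowest in WT replicate 4.

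Hormone and tuft cell genes were scarcer still. Enteroendocrine genes summed to 306, 222, 266 and 140.2 CPM with 15 of 29 detected in every library, and Gip, a hormone of the upper small intestine, had no fragment. Chgb, a granule protein, had 114, 52.96, 68.9 and 31.8 CPM, Pyy, a hormone of the distal gut, 19.8, 36.2, 36.3 and 17.7 CPM, and Insl5, a hormone of the colon and rectum, 9.84, 31.8, 34.8 and 10.3 CPM. Chgb and Insl5 ordered the libraries differently, Chgb being highest in WT replicate 1 and Insl5 lowest there. Tuft cell genes summed to 174, 111, 105 and 102 CPM, and WT replicate 1 was highest in 14 of 15 detected members, against 34.2% of all detected genes. Dclk1, a kinase that marks tuft cells, had 27.98, 14.02, 16.1 and 12.7 CPM and Trpm5, their taste channel, 19.7, 8.67, 7.74 and 9.65 CPM. Rgs13, a regulator of G protein signalling, had 7.04, 3.8, 3.89 and 3.42 CPM.

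Lists of cells outside the epithelium stayed low. T cell genes summed to 68.8, 23.7, 12.7 and 39.9 CPM, highest in WT replicate 1 and lowest in WT replicate 3. Cd3e, a part of the T cell receptor complex, had 3.75, 1.21, 0.487 and 2.03 CPM, a mean of 1.24 CPM without WT replicate 1, and 3 of 21 members were detected in every library. Intraepithelial lymphocytes are a normal part of the colon epithelium. B and plasma cell genes summed to 237, 266, 272 and 274 CPM, nearly all of it Sdc1 (234, 262, 269 and 261 CPM), a proteoglycan that epithelial cells also make, which was the only 1 of 15 members to reach 1 CPM in every library. Igha, the IgA heavy chain, had 0.769, 0.825, 0.354 and 3.94 CPM, and a mean of 0.649 CPM without WT replicate 4. Myeloid genes summed to 32.1, 41.9, 41.03 and 42.2 CPM, mostly Cd14 (20.8, 32.6, 32.2 and 28.8 CPM), with 3 of 20 detected and Mpo at 0. C1qa, a complement gene of macrophages, had 2.43, 0.382, 0.288 and 0.377 CPM. It was highest in WT replicate 1, where the sum of the list was lowest.

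Stromal genes were low too. Fibroblast genes summed to 49.8, 44.95, 22.2 and 59.1 CPM, with 4 of 14 detected and none at 0. Fn1, fibronectin, held the largest share of the list, with 32.8, 28.99, 6.02 and 6.23 CPM, high in WT replicates 1 and 2. Dcn, decorin, had 2.34, 2.98, 4.53 and 14.4 CPM and Col1a1, a collagen chain, 0.523, 0.664, 0.863 and 3.33 CPM, both highest in WT replicate 4, and without it their means were 3.28 and 0.683 CPM. Smooth muscle genes summed to 170.0, 118, 113 and 139 CPM, of which Mylk (90.7, 52.7, 53.3 and 84.96 CPM), a kinase with wide expression, held the largest share, and Acta2, Myh11, Des and Actg2 did not reach 1 CPM in every library. Endothelial genes summed to 12.4, 12.4, 15.8 and 11.9 CPM, with 3 of 12 detected and Flt1 and Emcn at 0. Neuron and glia genes summed to 4.89, 5.11, 6.11 and 4.32 CPM with Vip at 0, and erythrocyte genes to 5.1, 3.72, 2.46 and 8.77 CPM with no member detected in all. Pancreatic acinar genes served as an outside reference, and 6 of 8 had no fragment in any library, although Cela1, an elastase also made outside the pancreas, had 66.8, 163, 190.4 and 107 CPM. How far these cells contribute to the spread of other genes was not tested.

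**Figure D3:**
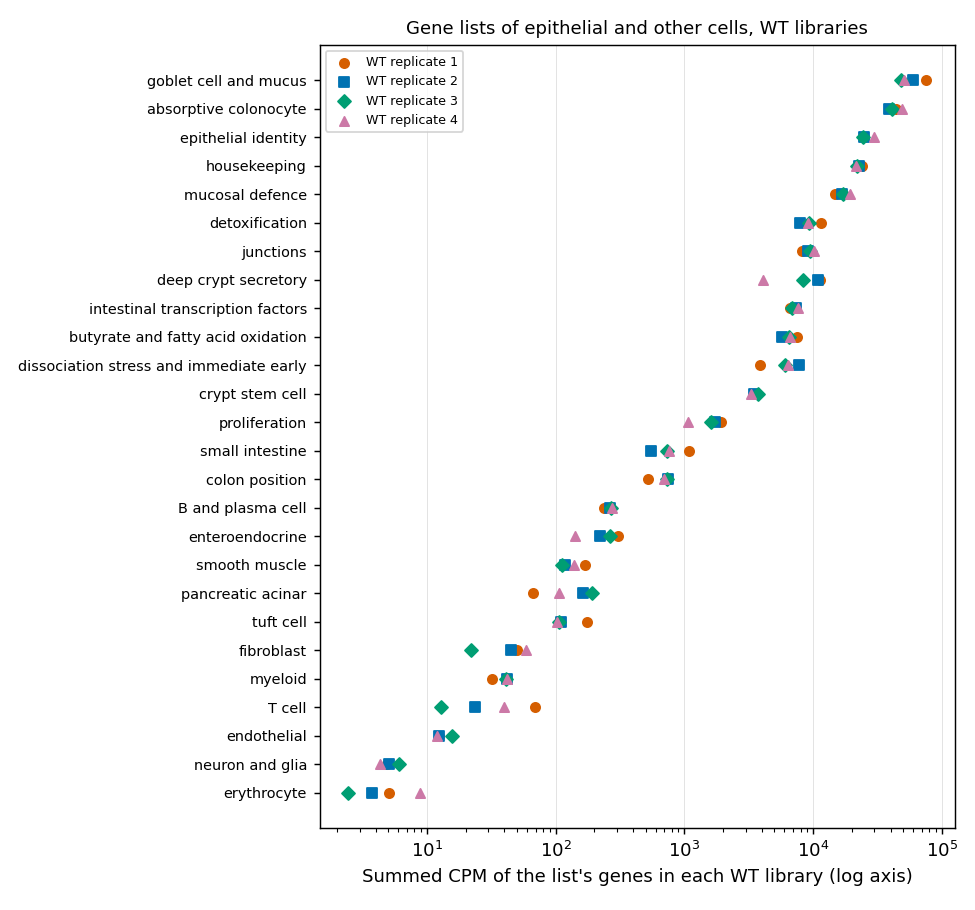
Summed CPM on a log axis for each of the 26 gene lists, with 1 symbol per WT library. The goblet cell and absorptive lists lie at the top and the lists of fibroblasts, myeloid cells, T cells, endothelium, neurons and erythrocytes lie lowest, with T cell genes spread from 12.7 to 68.8 CPM.

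Defence genes and stress genes varied between libraries in their own ways. B2m, the light chain of class I molecules, had 538, 377, 299 and 558 CPM, and H2-K1, a class I heavy chain whose reads may be shared with its relatives, 753, 593, 584 and 774 CPM. Ifit1, an interferon-induced gene, had 104, 34.8, 16.3 and 114 CPM and Oas3, another, 79.8, 32.1, 12.6 and 103 CPM, both lowest in WT replicate 3 and highest in WT replicate 4. Saa1, an acute phase protein, had 192, 531, 585 and 629.6 CPM, lowest in WT replicate 1. Immediate early genes, which cells switch on within minutes of a stimulus or of handling, were lowest in WT replicate 1 as well. Fos had 313, 818, 685 and 927 CPM and Jun 242, 725, 674 and 802 CPM. The stress list summed to 3853, 7828, 6032 and 6356 CPM, and WT replicate 1 was lowest in 15 of 25 detected members, against 27.7% of all detected genes.

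Most genes varied little between the 4 libraries. Over the 4228 genes with a mean of at least 50 CPM, which hold 85.1% of fragments, the median CV was 11.2%, while counting error alone at these depths would give a median of 1.55%. Without WT replicate 1 the median CV of these genes was 9.15%. In 1792 genes (42.4%) the CV was under 10% and in 66 (1.56%) it was over 50%. WT replicate 1 was the highest library in 32 of those 66 and the lowest in 18, against 1255 and 1401 of all 4228. The spread did not shrink further above 50 CPM. The median CV was 22.2% at 1 to 10 CPM, 11.8% at 10 to 50, 10.8% at 50 to 200, 12.4% at 200 to 1000 and 17.2% in the 71 genes at 1000 CPM or more.

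**Figure D4:**
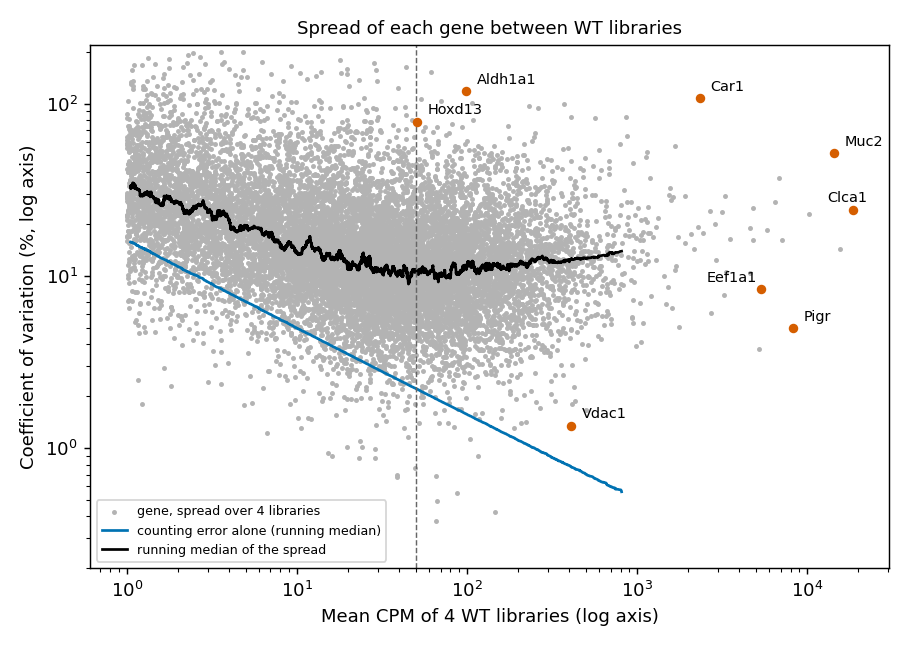
CV in percent against mean CPM, both on log axes, with 1 point per gene. The black line is the running median of the spread, the blue line the part that counting error gives, and the dashed line marks 50 CPM. The median CV of genes of at least 50 CPM is 11.2%, where counting error alone gives 1.55%.

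The steadiest genes above 50 CPM were of basic cell machinery. Ap3s1, an adaptor of vesicle coats, had 66.3, 66.4, 66.2 and 65.8 CPM (CV 0.374%), and Coq9, of coenzyme Q synthesis, 67.4, 67.4, 66.97 and 66.8 CPM. Vdac1, the mitochondrial outer membrane channel, held the largest share of fragments among the 15, at 413, 418, 407 and 406 CPM. In 11 of these 15 the CV was below the one that counting error alone gives, as in 17 of all 4228 genes, so nothing is read from the order among them.

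WT replicate 1 was most often the extreme library among the least steady genes. Gene models without a given name were left aside, and of the 15 other genes with the largest CV WT replicate 1 was highest in 11 and lowest in 1, Hoxd13. Over all 4228 genes of at least 50 CPM it was highest in 1255 and lowest in 1401. The 15 genes were picked by the same 4 values. Aldh1a1, a retinaldehyde dehydrogenase, had 271, 19.3, 35.3 and 69.00 CPM, and Pnliprp2, a lipase, had 135, 50.8, 20.9 and 8.3 CPM. Pla2g4c, a phospholipase, had 518, 314, 32.9 and 68.5 CPM, with WT replicates 1 and 2 high and 3 and 4 low. Plet1, a surface protein of epithelial progenitors, had 235, 68.3, 39.3 and 92.7 CPM. Hspa1b, a heat shock protein whose reads may be shared with its near copy Hspa1a, had 86.7, 166, 57.8 and 18.7 CPM, and a mean of 54.4 CPM without WT replicate 2. Without WT replicate 1 the means were 41.2 CPM for Aldh1a1, 26.7 CPM for Pnliprp2, 138 CPM for Pla2g4c and 66.7 CPM for Plet1. Of these 15 genes, 9 were also among the 15 with the largest CV over WT replicates 2 to 4 alone, a count added after the data were seen.

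**Figure D5:**
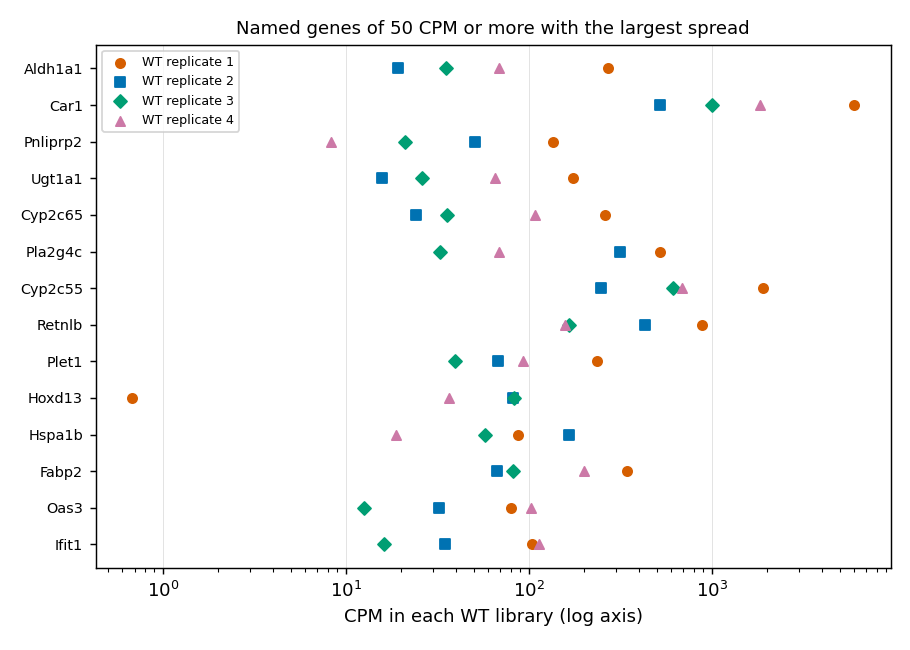
CPM on a log axis in each WT library for 14 of the 15 genes with a given name, of at least 50 CPM, with the largest CV. WT replicate 1 is highest in 10 of the 14, against 1255 of all 4228 genes of at least 50 CPM, and Hoxd13 lies at 0.676 CPM in that library.

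The promoters of the most abundant genes were set beside all others, using RefSeq sequences on GRCm38.p6 of 300 bases, 250 before to 50 after the start. Of 21887 coding genes 16502 matched a promoter, among them 73 of the 100 nuclear coding genes with the highest CPM per kb. The letters TATAAA, the core of a TATA box, occurred on either strand in 18 of these 73 (24.7%), in 6.94% of promoters of all detected coding genes and in 12.8% of all 16502. The share was 20.1% among the coding genes that were not detected. It was 12.5% (3 of 24) in the goblet cell and mucus list, 20.6% in the absorptive colonocyte list and 32% (8 of 25) in the housekeeping list. On the gene's own strand and starting 20 to 40 bases before the start they occurred in 6 of 73 (8.22%), against 2.78% of all. The GC box GGGCGG was found in 41.1% against 48.0% of all and 65.5% of the detected genes, CCAAT in 35.6% against 38.7%, CCATAAA in 4.11% against 2.3%, GTTAAT in 5.48% against 6.16% and CAAAGTNCA in none against 1.32%, each on either strand. CCATAAA can overlap TATAAA, and these shares are a description of letters, not of bound sites. The 6 promoters with a placed TATAAA are shown from 50 bases before to 10 after the start, 5′ to 3′ on the gene's strand, with TATAAA in capitals:
Krt20 (chr11:99438144-99438203, minus strand): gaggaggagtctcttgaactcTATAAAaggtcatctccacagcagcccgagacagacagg
Cyp2c55 (chr19:39006969-39007028, plus strand): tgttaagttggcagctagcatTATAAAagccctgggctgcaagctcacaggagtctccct
Tgm3 (chr2:130012290-130012349, plus strand): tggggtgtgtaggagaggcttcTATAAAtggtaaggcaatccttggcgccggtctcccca
1810065E05Rik (chr11:58421061-58421120, plus strand): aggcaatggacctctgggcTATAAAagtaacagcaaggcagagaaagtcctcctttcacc
2610528A11Rik (chr14:37110092-37110151, minus strand): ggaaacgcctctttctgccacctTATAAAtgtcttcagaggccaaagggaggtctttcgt
Fos (chr12:85473840-85473899, plus strand): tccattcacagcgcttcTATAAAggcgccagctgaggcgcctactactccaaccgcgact

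The 6 genes differed in their spread between libraries. Their CVs were 31.4% for Krt20, 83.8% for Cyp2c55, 56.4% for Tgm3, a transglutaminase, 99.5% for 1810065E05Rik, 15.9% for 2610528A11Rik and 39.0% for Fos against the median of 11.2% over genes of at least 50 CPM. The 6 genes were chosen by level and motif, and their spread was not tested. The mean of 1810065E05Rik without WT replicate 1 was 192 CPM. The abundant set had a median summed exon length of 1830 bp against 3610 bp over all matched genes and 4540 bp over the detected ones. The set was chosen by CPM per kb, which favours short genes, so nothing is read from these lengths. The median promoter GC of the set was 55%, against 57% over all matched genes and 61% over the detected ones.

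Some known genes of the colon could not be described. Among the 33 left out, Sult1a1 and Akap13 had failed in WT replicate 1, Muc4 and Muc20, both mucins, in WT replicate 3, Mgam, a brush border glucosidase, in WT replicates 1 and 4, and Sprr2a1 and Sprr2a2 had too many fragments in WT replicates 2 and 4. Where they had an estimate they were often well expressed: Muc4 had 16897, 13009 and 15237 scaled counts in WT replicates 1, 2 and 4. All 58 such values are listed at 0 in the deposited table, so a level of 0 there does not mean an absent transcript.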

How the data were processed

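RNA of 4 WT libraries was sequenced. The submitters' processing notes name cutadapt 1.9, TopHat2 2.0.10, Cuffdiff and Cufflinks 2.1.1, and mm10 as the build. The step order, annotation and use of strand were not given in the sources used here. Reads of overlapping or antisense genes can therefore be mixed. The table deposited by the authors holds an estimated count and a status word per gene and library, per the file headers. Genes with FAIL or HIDATA in any WT library were left out, and 612 LOWDATA genes were kept. Each count was divided by its column sum, times 1000000. Low values were whole multiples of 1 step per library, within 0.02 for 96.9% to 97.2% of values up to 100 fragments, which gave the recovered depths. Of 54141 IDs, 54074 matched a symbol. The 67 others were kept in the sums.

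Python 3.11.15, pandas 2.3.3 and numpy 2.4.6 were used, and edgeR 4.0.16 in R 4.3.3 gave TMM factors. The computation of the CV was checked on simulated data. No test was made, since 1 group was described. The 26 lists, 38 families by symbol pattern and the genes were chosen with earlier results of these data known. The rule for named genes took the 4 label markers, the 20 highest genes by CPM and by CPM per kb, the 15 largest and 15 smallest CVs at 50 CPM or more, the leading 5 members of each list with its most variable member and those at 0, the leading 3 of each family, and named genes left out. Not all of these are described, some genes that the rule takes are not reported here, and Tff3, Spink4, Atoh1, Spdef, Slc26a3, Scnn1a, Scnn1b, Scnn1g, Aqp8, Cdx2, Lgr5, Ascl2, Dclk1, Trpm5, Cd3e, Col1a1, Degs2 and the genes of the shown promoters were added for their known roles after values were seen. The labels name no batch or date.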

Additional observations from a re-analysis of the deposited data

Results flagged for a closer look

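Of 182 results examined (111 genes, 64 families and lists, 7 measures of the libraries), 18 (9.9%) had 1 library far from the other 3 by Dixon's criterion for 4 samples. Chance flags about 1 in 20 groups, and members of a family are not independent. Some of the 111 genes were named for a large spread over these same libraries or added after values were seen. The 9.9% can therefore not be set against that rate, and no excess is read from it. The library was WT replicate 1 in 10 cases, WT replicate 4 in 7 and WT replicate 3 in 1. C1qa was not among the 111 genes examined.

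In WT replicate 1 the high values were Ces1g at 150.4 CPM (others 5.27 to 12.1), Osr2 at 65.5 CPM (others 0.0201 to 5.92), Hoxb8 at 32.0 CPM (others 0.287 to 4.41), Trpm5 at 19.7 CPM (others 7.74 to 9.65), Rgs13 at 7.04 CPM (others 3.42 to 3.89), the tuft cell list at 174.3 CPM (others 101.9 to 110.9) and the glutathione transferases at 1831 CPM (others 1565 to 1607). Its low values were Muc13 at 1734 CPM (others 2956 to 3067), the Hox family at 685.3 CPM (others 906 to 941.2) and the myeloid list at 32.1 CPM (others 41.0 to 42.1).

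In WT replicate 4 the high values were mt-Nd1 at 7421 CPM (others 5121 to 5439), the epithelial identity list at 29589 CPM (others 24337 to 24921), Igha at 3.94 CPM (others 0.354 to 0.825), Col1a1 at 3.33 CPM (others 0.523 to 0.863) and the family of immunoglobulin symbols at 25.8 CPM (others 12.6 to 14.3). That family includes Ighmbp2, which is not an immunoglobulin gene. Its only member detected in every library had a CV of 11.6%, against 37.2% for the sum, so the rise in WT replicate 4 lay largely outside that member. The low values of WT replicate 4 were Eef1a1 at 4670 CPM (others 5468 to 5611) and the translation factors at 17109 CPM (others 19233 to 19602). In WT replicate 3 the endothelial list was highest, at 15.8 CPM (others 11.9 to 12.4).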

How the results depend on the processing

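Counts of detected genes, the number of genes that hold 50% of fragments and the shares of the leading 10, 100 and 1000 genes stayed within 1.5 times or 1 SD of the values given under each alternative tried: all rows in the column sum, TMM, LOWDATA genes left out, other CPM thresholds and each library left out. For the shares, leaving out 1 of 4 libraries can hardly move a mean by 1 SD of the same libraries. That part was nearly fixed in advance, and nothing is read from it. For the counts 1.5 times is a wide limit. The detected genes numbered 13607 at 0.5 CPM and 10110 at 5 CPM, against 12501 at 1 CPM. Without 1 library the detected genes numbered 12584 to 12655 and the median CV was 9.18% to 12.5%, lowest without WT replicate 1, with genes chosen again by their mean over the other 3. The mean CPM of 22 gene-and-library cases moved by over 1.5 times when that library was left out, 17 of them through WT replicate 1 (Osr2 17.9 to 2.002 CPM, Ces1g 43.6 to 8.03, Aldh1a1 98.5 to 41.2), 2 through WT replicate 2 (Hspa1a and Hspa1b) and 3 through WT replicate 4 (Igha, Col1a1 and Dcn). These cases come from the 111 genes examined, which leave out C1qa. No summed family or list moved by that much. Keeping all rows moved the sulfotransferases from 0.0495% to 0.06808% of fragments, since Sult1a1 is then counted. With the longest transcript as length, 32 of 110 ranks per kb moved by more than the spread of ranks between libraries, and Muc2 went from rank 14 to rank 7. No paired analysis was possible because 1 group was described. Depth limits genes near 0.0923 CPM, and 4 libraries limit every SD.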
